A study of Mus musculus with 6 samples.

Results

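The organic anion transporters of the Slco gene family were examined in testes of juvenile mice with and without Hsf5, which encodes a heat shock transcription factor of male germ cells. The rows of the deposited expression table whose symbol was Slco6b1, Slco6c1, Slco6d1, Slco2a1, Slco2b1, Slco3a1, Slco4a1, Slco4c1 or Slco5a1 were taken, which gave 9 of the 29333 genes in the table. The first 3 of these form the Slco6 group, and the other 6 are compared with it. The 9 genes and their grouping were chosen by symbol with their values in these libraries, the difference between knockout and control, already known, so their own differences are given as a description and not as a test.

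RNA sequencing was done on whole testes at postnatal day 16, and the labels list 3 knockout samples (Hsf5-/-) and 3 controls. The labels call the controls wild type, whereas the design text speaks of wild type or Hsf5+/- animals, so they are called control here. The labels give neither the strain nor the deleted part of Hsf5, and do not say that each sample is a separate animal. The p-values below therefore describe the spread among the libraries, which may be technical. The table has values for control 1, control 2, knockout 1 and knockout 3. They are normalised read counts, the number of reads assigned to a gene divided by a size factor for the library. Whole reads recovered from them summed to between 16209093 and 18557898 per library, and 1 read was worth between 0.970 and 1.02 normalised counts.

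Slco genes encode organic anion transporting polypeptides, membrane proteins that take up bile salts, steroid sulphates, thyroid hormones, prostaglandins and many drugs without the help of a sodium gradient. Most subfamilies act in liver, kidney, brain vessels or in many tissues. The Slco6 subfamily is known as the gonadal one: rat relatives were cloned from testis as carriers of thyroid hormone and steroid sulphate. Slco6c1 and Slco6d1 are typed as protein coding in the deposited table. Slco6b1 is typed there as a transcribed unprocessed pseudogene, so it is a transporter by name and not by annotation.

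The Slco6 genes lie on chromosome 1, Slco6b1 beside Slco6c1 and Slco6d1 farther along beyond other genes, and their promoters are printed because the 3 sequences resemble each other more than they resemble those of the other members that have an entry. Each line below holds the 250 bases before the annotated start, read 5′ to 3′ in the direction of the gene, from RefSeq on build GRCm38.p6, whereas the expression table was made on mm39. Capitals mark the 3 words of at least 9 bases that all of them hold in the same order.
Slco6b1, chr1:96997561-96997810, minus strand: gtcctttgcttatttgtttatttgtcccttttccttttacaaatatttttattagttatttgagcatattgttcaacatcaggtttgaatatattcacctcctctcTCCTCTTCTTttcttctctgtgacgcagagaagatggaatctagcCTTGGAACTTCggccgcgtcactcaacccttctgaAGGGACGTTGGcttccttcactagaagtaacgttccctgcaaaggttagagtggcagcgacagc
Slco6c1, chr1:97128304-97128553, minus strand: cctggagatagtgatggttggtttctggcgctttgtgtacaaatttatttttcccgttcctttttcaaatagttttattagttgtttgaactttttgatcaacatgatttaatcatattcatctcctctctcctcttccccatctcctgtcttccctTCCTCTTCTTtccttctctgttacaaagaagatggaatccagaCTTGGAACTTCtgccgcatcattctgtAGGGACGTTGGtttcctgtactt
Slco6d1, chr1:98420874-98421123, plus strand: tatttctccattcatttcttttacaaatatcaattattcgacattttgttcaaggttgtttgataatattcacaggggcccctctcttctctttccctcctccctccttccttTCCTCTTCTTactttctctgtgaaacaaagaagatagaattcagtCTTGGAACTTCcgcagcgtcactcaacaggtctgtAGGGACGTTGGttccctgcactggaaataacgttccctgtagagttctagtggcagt
Counted back from the start, the word TCCTCTTCTT began at base -144 in Slco6b1, -93 in Slco6c1 and -137 in Slco6d1. The word CTTGGAACTTC began at -99, -50 and -92 in the same order, and AGGGACGTTGG at -64, -23 and -57. Among the 32841 windows of this length from genes that are neither members nor the pseudogenes Gm7133 and Gm7135, AGGGACGTTGG was found on either strand in 3 (0.00913%), CTTGGAACTTC in 8 (0.0244%) and TCCTCTTCTT in 85 (0.259%).

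These windows were aligned over their whole length without a penalty for gaps at the ends, and identity was taken over the aligned bases. Slco6b1 was 82.7% identical to Slco6c1 and 81.9% to Slco6d1, and Slco6c1 was 80.3% identical to Slco6d1. The same alignment of a Slco6 promoter with the first listed promoter of Slco2a1, Slco2b1, Slco4a1 or Slco4c1 gave between 51.3% and 63.8%. The table of promoters had no entry for Slco3a1, Slco5a1, Gm7133 or Gm7135. The Slco6 windows were poor in G and C, with 42.0% in Slco6b1, 39.6% in Slco6c1 and 42.0% in Slco6d1, against a median of 52.4% over 32851 windows. The first windows of Slco2a1 (63.2%), Slco4c1 (66.4%), Slco4a1 (64.8%) and Slco2b1 (58.0%) were all above that median.

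The windows were searched on both strands for 4 motifs, which can overlap each other. The short heat shock element (GAANNTTC or TTCNNGAA, in 12.8% of all windows) had no match in the 3 Slco6 promoters and matched in 2 of the 3 windows of Slco2b1. The cAMP response half-site TGACG (17.8% of windows) matched at bases -124 and -83 in Slco6b1, at -76 in Slco6d1 and at -119 in Slco2b1. The MYB word (AACGG or AACTG, 48.6% of windows) matched in Slco6c1 alone of the members with a window, at base -197. The RFX half-site GTTGCC (10.4% of windows) matched in none of them. A match describes the letters of the window and is not a binding site, and an absent match says only that those letters are not there.

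Slco6c1, the most abundant Slco6 gene, had a normalised read count of 265 in control 1 and 703 in control 2, and no read in knockout 1 or knockout 3. Its control mean was 484 ± 310 (SD, n = 2), made of 982 reads. Both controls therefore lay above both knockouts, and the controls differed from each other by 2.66-fold. With the controls pooled and a floor of 3 reads over the knockout group, Slco6c1 was at least 317-fold lower without Hsf5. The bound was 294-fold with libraries scaled by their totals. Control 2, the higher control, gave 709 of the 982 reads, and control 1 alone would give a smaller bound. The fitted log2 fold change of knockout over control on the log2(value + 1) scale, which understates the change of low genes, was -8.76 (SE 0.54).

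Slco6d1 had 102 normalised counts in control 1, 291 in control 2 and no read in either knockout, with a control mean of 196 ± 133 (SD, n = 2). It was at least 128-fold lower without Hsf5 by the same pooled bound, and its fitted log2 fold change was -7.44 (SE 0.62). Slco6d1 followed Slco6c1 library by library, with both knockouts empty and control 2 higher than control 1, here by 2.85-fold.

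Slco6b1, the pseudogene of the group, was scarcer, with normalised counts of 10.7 and 58.5 in the controls, 1.0 in knockout 1 and 0 in knockout 3. These were 11, 59, 1 and 0 reads. The control mean was 34.6 ± 33.8 (SD, n = 2), so its spread was as wide as its level. The controls were again both above the knockouts, the ratio of control to knockout was 67.7 (exact 95% binomial interval 11.8 to 2713, counting error only), and the fitted log2 fold change was -4.22 (SE 0.93).

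Of the 17480 genes with a mean normalised count of at least 10, limma with Benjamini-Hochberg adjustment called 13.5% lower and 3.28% higher in the knockouts at an adjusted p under 0.05, 16.8% in all. All 3 Slco6 genes were among those called lower, a count that the choice of members fixes. They were also called lower by edgeR, which called 12.3% of its tested genes lower. In the authors' deposited table, where 11.3% of the genes tested were lower and 2.26% higher by the same threshold, the log2 fold changes were -11.34 for Slco6c1 (SE 1.83), -10.04 for Slco6d1 and -6.09 for Slco6b1. Without control 2 the log2 fold changes were -8.05 for Slco6c1, -6.68 for Slco6d1 and -3.04 for Slco6b1, and without control 1 they were -9.46, -8.19 and -5.39. The limma call of Slco6b1 was lost without knockout 3 (adjusted p = 0.0991). All 3 calls were lost in limma without the mean-variance trend, with adjusted p-values of 0.0549 for Slco6c1, 0.0717 for Slco6d1 and 0.125 for Slco6b1.

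**Figure D1:**
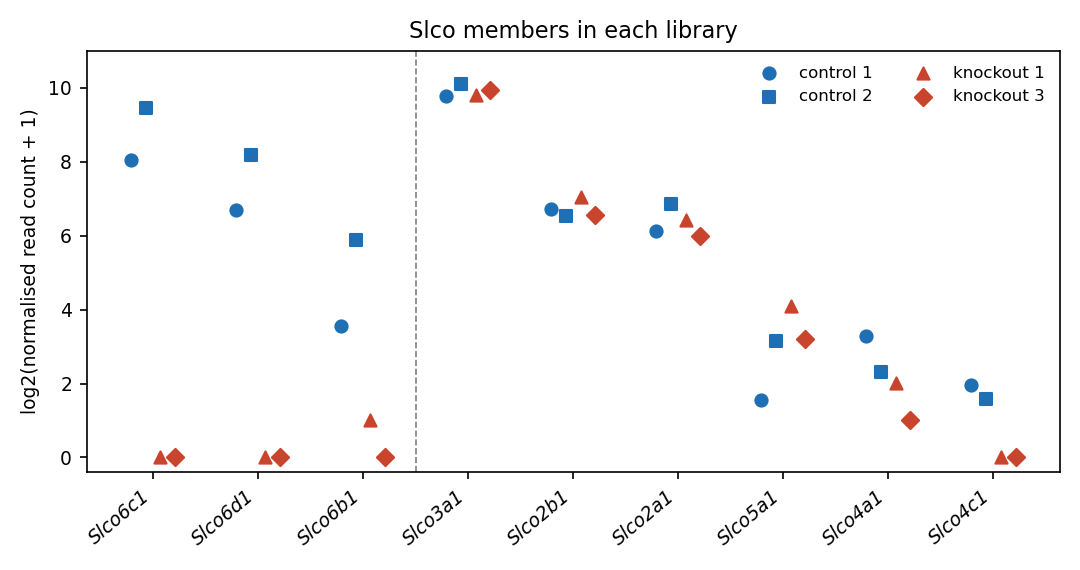
Level of the 9 Slco members in each library, as log2(normalised read count + 1) on the vertical axis, with the Slco6 group left of the dashed line and 1 point per library. The Slco6 genes are present in control 1 (circle) and control 2 (square) and at or near 0 in both knockouts, while Slco3a1, Slco2b1 and Slco2a1 overlap between the groups.

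The other members with enough reads for the test, Slco3a1, Slco2b1 and Slco2a1, did not share this pattern. Slco3a1, a broadly expressed carrier of prostaglandins and thyroid hormone, had 876 and 1105 normalised counts in the controls and 894 and 983 in the knockouts. The knockouts lay between the controls, with means of 990 ± 162 in controls and 939 ± 63.3 in knockouts (SD, n = 2 each) and a log2 fold change of -0.07 (SE 0.13). Slco2b1, which takes up steroid sulphates and many drugs, had 105 and 92.2 in the controls and 130 and 93.2 in the knockouts. The groups overlapped, and its log2 fold change was 0.16 (SE 0.25). Slco2a1, the prostaglandin transporter, had 68.8 and 115 in the controls and 85.2 and 62.5 in the knockouts. These overlapped as well, with a log2 fold change of -0.28 (SE 0.32).

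None of Slco3a1, Slco2b1 and Slco2a1 was called by limma, by edgeR or by DESeq2. The sign of these small differences was not fixed: without control 2, Slco2a1 was at 0.08 and Slco3a1 at 0.10, and with scaling to Sertoli cell markers Slco2b1 was at -0.09. With scaling to library totals Slco3a1 was at 0.04.

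The remaining 3 members were too low for the test, with a mean under 10 normalised counts, and are given in reads. Slco5a1, whose substrates are little known, had 2 and 8 reads in the controls and 16 and 8 in the knockouts. Control 2 and knockout 3 thus held the same number of reads, and in normalised counts, at 7.93 and 8.20, their order came from the size factors. The log2 difference was 1.29, but 0.49 without control 1, 2.09 without control 2 and 0.84 without knockout 1. The ratio of control to knockout was 0.403 (exact 95% binomial interval 0.172 to 0.875, counting error only). Slco5a1 was not called in the authors' deposited table (adjusted p = 0.718 by their test). Nor was it called by limma with no filter on low values (adjusted p = 0.415). Slco4a1, a thyroid hormone and prostaglandin carrier, had 9, 4, 3 and 1 reads in control 1, control 2, knockout 1 and knockout 3, a ratio of 3.15 (0.972 to 13.2). Slco4c1, known as the digoxin and thyroid hormone carrier of the kidney, had 3 and 2 reads in the controls and none in the knockouts. At this depth a difference in Slco4a1 or Slco4c1 was not detectable.

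The median log2 fold change was -7.44 over the Slco6 genes (range -8.76 to -4.22) and -0.18 over the other 6 (range -1.77 to 1.29), beside 0.01 over all tested genes. With genes that had no knockout read set at their bound, the medians were -7.00 and -0.19. Both controls were above both knockouts in 3 of 3 Slco6 genes and in 2 of the other 6, while 31.9% of all tested genes had that order. Those 2 were Slco4a1 and Slco4c1, both too low for the test, while Slco3a1, Slco2b1 and Slco2a1 overlapped between the groups. The reverse order, knockouts above controls in normalised counts, was found in Slco5a1 alone of the members, also too low for the test. It was found in 29.8% of tested genes. The median of the Slco6 genes minus the median of the other members, on the log2(value + 1) scale, was 1.98 in control 1 and 3.34 in control 2. It was -5.26 in knockout 1 and -4.59 in knockout 3. The median of the Slco6 genes was thus the higher in both controls and the lower in both knockouts. That order in the controls depends on the 3 other members too low for the test. Among tested members the middle genes in control 1 were Slco6d1 at 102 and Slco2b1 at 105 normalised counts. In control 2 they were Slco6d1 at 291 and Slco2a1 at 115. Slco3a1 by itself had more normalised counts than each Slco6 gene in every library.

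**Figure D2:**
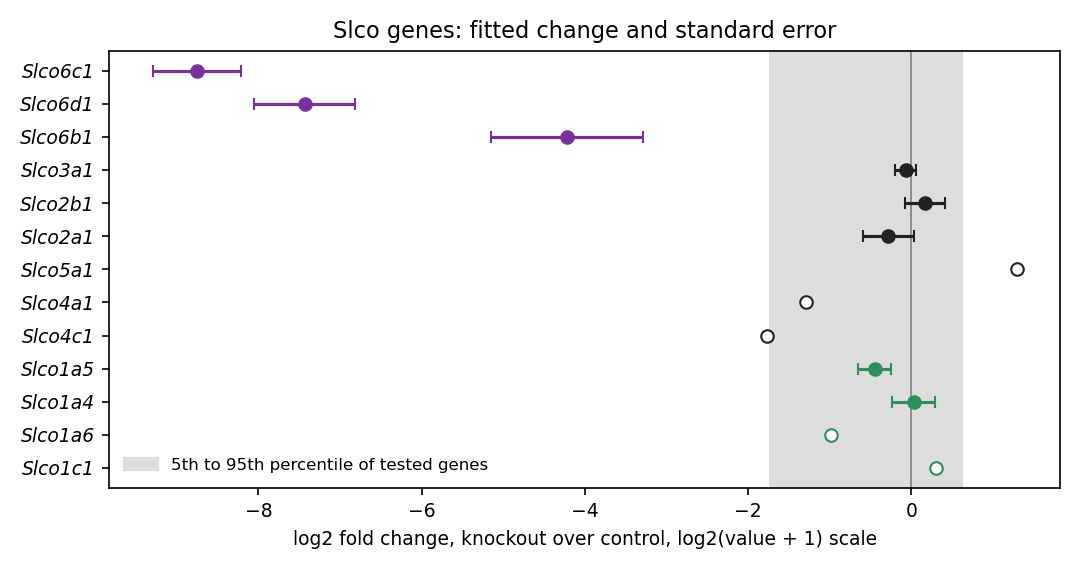
Fitted log2 fold change of knockout over control (horizontal axis, log2(value + 1) scale) for the Slco members and the 4 measured Slco1 genes, with bars of 1 standard error, open points for genes too low to test, and a grey band from the 5th to the 95th percentile of tested genes (-1.73 to 0.61). The 3 Slco6 genes lie left of the band, at -8.76, -7.44 and -4.22, and every tested gene of the other subfamilies lies inside it.

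As a share of all reads on the 13 measured Slco genes, the Slco6 group held 22.8% in control 1 (389 of 1709 reads, exact 95% binomial interval 20.8 to 24.8%) and 39.9% in control 2 (1061 of 2660, 38.0 to 41.8%). In knockout 1 it held 0.0757% (1 of 1321, 0.00192 to 0.421%), and in knockout 3 it held 0 of 1313 reads, with an exact upper limit of 0.281%; the floor of 3 counts is a share of 0.228%. Slco3a1 held 52.8% and 41.9% of Slco reads in the controls and 67.5% and 73.1% in the knockouts. The summed normalised count of the other 6 members, most of it from Slco3a1, stayed between 1063 and 1326 in all 4 libraries. That of the Slco6 group was 377, 1052, 1.0 and 0.

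Levels of different genes were compared per kilobase of the longest GENCODE M21 transcript. In controls Slco3a1 stood highest at 216 ± 35.3 normalised counts per kilobase, followed by Slco6c1 at 176 ± 113 and Slco6d1 at 69.1 ± 47.0 (SD, n = 2). Slco6c1 spanned 96.4 to 256 in the controls and Slco3a1 191 to 241, so their order differed between the controls and these neighbours did not differ beyond their spread. Slco6d1, Slco1a5 at 58.8 ± 6.30 and the pseudogene Gm7135 at 44.4 ± 46.2 overlapped in the same way. Slco2b1 (22.5), Slco1a4 (19.6), Slco6b1 (13.9) and Slco2a1 (12.9) formed a lower tier, with Slco6b1 ranging from 4.28 to 23.5 across it. Slco4a1 (2.05), Slco5a1 (0.580) and Slco4c1 (0.498) were the lowest members. In the knockouts the order was Slco3a1 at 205 ± 13.8, Slco1a5 at 42.9 ± 3.71, Slco2b1 at 25.5 ± 5.98, Slco1a4 at 19.9 ± 0.817 and Slco2a1 at 10.4 ± 2.25, with every other Slco gene at 1.43 or less.

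All 3 Slco6 genes were higher in control 2 than in control 1. On the log2(value + 1) scale control 2 was above control 1 by 1.41 in Slco6c1, 1.50 in Slco6d1 and 2.35 in Slco6b1. The other members ranged from -0.97 to 1.60 with a median of 0.08, the upper end being the low gene Slco5a1, and the median of all tested genes was 0.02. A difference above 1 was found in 970 tested genes, 5.55% of them. The markers of pachytene and diplotene spermatocytes, the most advanced germ cells expected at this age, moved in the same direction, with a median of 0.91.

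All 15 of those spermatocyte markers were tested and all 15 fell in the knockouts, with a median log2 fold change of -2.21. The count that fell was 8 with no filter on low values, 0 in limma without the trend and 12 to 15 on leaving out 1 library. Their summed normalised count was 57356 and 83942 in the controls and 20113 and 15994 in the knockouts, and every marker had reads in all 4 libraries. Adam3, a sperm membrane protein gene, had 303 and 1847 normalised counts in the controls and 13.0 and 10.2 in the knockouts (-5.90, limma adjusted p = 0.000892). Pou5f2, a germ cell transcription factor, had 61.1, 323, 1.0 and 3.07 (-5.63, limma adjusted p = 0.00172). In whole testis fewer cells of a type and less RNA per cell cannot be told apart, and the part of spermatocyte numbers in the Slco6 values was not tested. The other lists had fewer lower calls, 1 of 10 for early meiotic prophase, 1 of 10 for spermatogonia and none of 15 for Sertoli cells. Of the Sertoli cell markers 6 of 15 were called higher (10 at an unadjusted p under 0.05, median 0.27), among them Cldn11 at 0.32, and so were 3 of 10 spermatogonia markers and Nr5a1 of the Leydig list, beside 3.28% of all tested genes. With scaling to the Sertoli cell markers, and also without control 2, none of these was called higher. That scaling sets the typical Sertoli cell marker level across the libraries, so it cannot show whether those markers rise. Leaving out another library gave 2 to 3 higher Sertoli calls and 0 to 1 higher spermatogonia calls. The part of these cells in the Slco6 values was not tested. None of 10 Leydig, 5 myoid, 10 macrophage, 10 endothelial or 2 tested spermatid markers was called lower by limma, edgeR or DESeq2. Before adjustment, p was under 0.05 in 2 Leydig and 1 macrophage marker of these, in the lower direction. With scaling to the Sertoli cell markers, limma called 1 Leydig marker lower. Hsf5 itself had 2541 and 3147 normalised counts in the controls and 1926 and 1602 in the knockouts, a log2 fold change of -0.69 (SE 0.12, limma adjusted p = 0.00716). That call was lost without control 2 (0.108) or without knockout 3 (0.0720). Since the deleted part is not given, these reads do not check the genotype.

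Position was not used to choose the members, so the neighbouring genes were tested. In RefSeq order on GRCm38.p6, chromosome 1 carries, among measured genes, Slco4c1, the noncoding Panct2, Slco6b1, Slco6c1 and the pseudogenes Gm7133 and Gm7135. Then come the ordinary genes Macir, Ppip5k2, Gin1 and Pam, the noncoding B230216N24Rik and 1810006J02Rik, and Slco6d1. Gm7135, typed as a transcribed unprocessed pseudogene, had 22.3 and 147 normalised counts in the controls and no read in the knockouts. It fell, with a log2 fold change of -5.87 (SE 0.90, limma adjusted p = 0.00324). With the reads of both controls pooled, Gm7135 was at least 55.2-fold lower. Without control 1 its log2 fold change was -7.21 and without control 2 it was -4.54. Gm7133, an unprocessed pseudogene, had 4 and 19 reads in the controls and none in the knockouts, too few for the limma test. It was at least 7.42-fold lower by the pooled bound. In the authors' deposited table its log2 fold change was -5.93, with an adjusted p of 0.0478 by their test. Both pseudogenes had the pattern of the Slco6 genes around them, with empty knockouts and control 2 the higher control.

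The genes between these and Slco6d1 did not follow. Macir, a regulator of macrophage metabolism, was at 0.44 (limma adjusted p = 0.189), Ppip5k2, an inositol pyrophosphate kinase, at -0.15 (0.270) and Pam, a peptide-amidating enzyme, at 0.23 (0.207). Gin1, an integrase-like gene, fell by 0.55 on the log2 scale (limma adjusted p = 0.0309), a call lost on leaving out any 1 library, with adjusted p-values from 0.110 to 0.198. The noncoding B230216N24Rik had 0 reads in both controls and 3 in each knockout, and 1810006J02Rik had 5 reads in knockout 3 alone. Both were too low for the test. Over the run from 5 genes before Slco4c1 to 5 genes after Slco6d1, 2 of 10 tested neighbours were lower and none was higher, beside 13.5% and 3.28% of all tested genes.

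**Figure D3:**
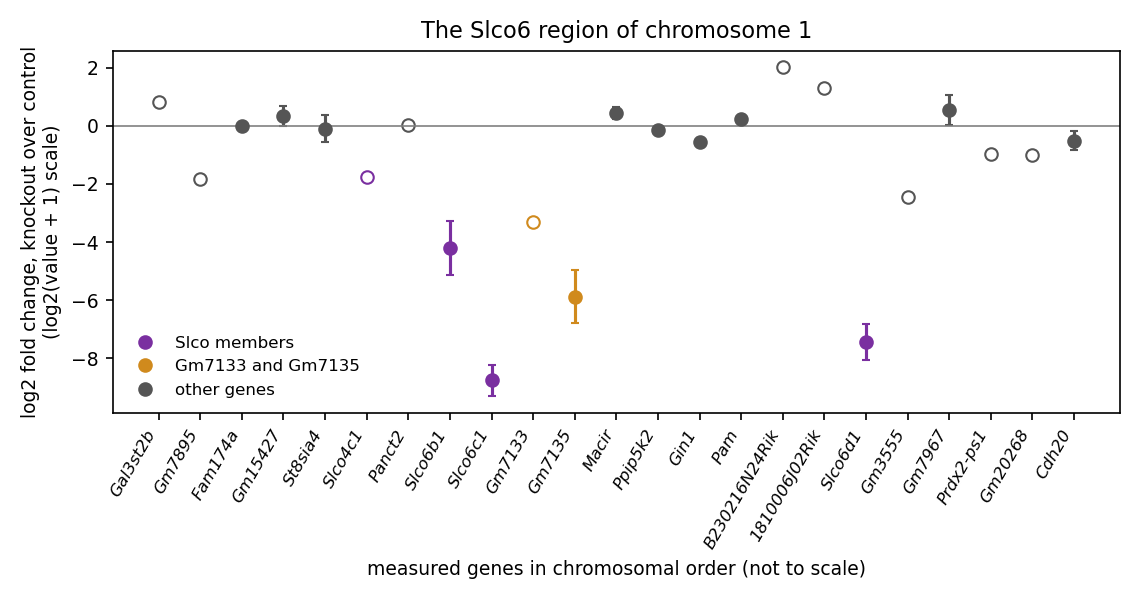
Fitted log2 fold change of knockout over control (vertical axis, log2(value + 1) scale, bars of 1 standard error) for measured genes around the Slco6 genes, in chromosomal order and not to scale, with open points for genes too low to test. Slco6b1, Slco6c1, Gm7133 and Gm7135 lie low side by side, Macir to Pam lie between -0.55 and 0.44, and Slco6d1 is low again at -7.44.

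Around the other members, some neighbours were called where the member itself was not. Near Slco3a1 the noncoding gene Gm21269 had 2128 and 3027 normalised counts in the controls and 0 and 1.02 in the knockouts (-10.80, limma adjusted p = 7.3e-06). Gm10619, also noncoding, had 179, 226, 1.0 and 0 (-7.16, limma adjusted p = 0.000153), and Fam174b, a membrane protein gene, fell by 2.69 on the log2 scale (limma adjusted p = 0.000311). St8sia2, the gene between them and Slco3a1, was at -0.23 and not called. Near Slco2b1, Xrra1 fell by 2.14 (limma adjusted p = 0.00254), and near Slco2a1, Cep63, a centrosomal protein gene, fell by 1.31 (limma adjusted p = 0.00568). The Cep63 call was lost without knockout 3 (0.0575). Tram1 near Slco5a1 fell by 0.72, and Mrgbp and Tcfl5 near Slco4a1 fell by 0.50 and 0.96 (limma adjusted p = 0.00317, 0.00695 and 0.00353). Rps3, a ribosomal protein gene near Slco2b1, rose by 0.29, and Amotl2 near Slco2a1 rose by 0.49 (limma adjusted p = 0.0183 and 0.0149), and neither was called with scaling to Sertoli cell markers. Mrgbp, Rps3 and Amotl2 lost their calls without knockout 3 (0.0810, 0.0666 and 0.152) and without control 2 (0.0903, 0.165 and 0.129), and Rps3 also without control 1 (0.0988) or knockout 1 (0.140). Over all runs 10 of 48 tested neighbours were lower and 2 higher, with a median of -0.09, beside the same 13.5% and 3.28%.

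Because the Slco6 genes are related, shared reads were examined in the GENCODE M21 transcripts. The longest transcripts were 68.0% identical between Slco6b1 and Slco6c1, 67.2% between Slco6b1 and Slco6d1 and 70.4% between Slco6c1 and Slco6d1. Gm7135 and Gm7133 were nearest to Slco6d1, at 82.1% and 79.4%, and were 91.1% identical to each other. Alignment of a Slco6 transcript with another member gave 56.0% to 62.8%. No stretch of 50 bases of Slco6b1 or Slco6d1 occurred in another gene, and 14 of 2698 stretches of Slco6c1 (0.519%) did, all in Gm47022. The share was 5.23% for Gm7135, all in Gm7133, and 8.31% for Slco2b1, in Gm15635 and Gm34280. Reads from these shared stretches could be assigned to either gene, and the sources used here do not say how the authors treated them.

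The genes with profiles nearest to each Slco6 gene were named by the Euclidean distance between log2(value + 1) profiles over the 4 libraries, each centred on its mean, among 14387 genes. For Slco6c1 these were Tcp10c of the t-complex (distance 0.397), the gluconeogenic enzyme Fbp1 (0.435) and the peroxiredoxin Prdx6b (0.638). The other Slco6 genes were not the nearest: Slco6d1 ranked 8 (1.32) and Slco6b1 95 (4.64). For Slco6d1 they were Speer2, of a testis gene family (0.263), the citrate transporter Slc13a5 (0.517) and Fam170a (0.587), with Slco6c1 at rank 21 and Slco6b1 at rank 94. For Slco6b1 they were Tomm20l, a relative of a mitochondrial import receptor (0.344), Tex22 (0.345) and Tcte1, of the sperm tail dynein regulatory complex (0.352), with Slco6d1 at rank 744 and Slco6c1 at rank 7641. Speer2 had 81.4 and 261 normalised counts in the controls and no read in the knockouts, and Slc13a5 had 140, 431, 0 and 0. These profiles rest on 4 libraries. They were centred but not scaled, so the distance also counts the size of a change. With empty knockouts that size follows the control level, so genes of similar shape can rank far apart.

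Other carriers and enzymes that handle the same substrates were taken as 7 lists with 108 genes, of which 65 were tested. Among them 7 fell (10.8%) and 5 rose (7.69%), with a median log2 fold change of 0.03, beside 13.5% lower and 3.28% higher over all tested genes. With scaling to library totals 6 fell and 7 rose. The Slco1 subfamily, which holds the liver and brain uptake carriers, had 4 of 8 listed genes in the table and no call among 2 tested. Slco1a4 was at 0.03 and Slco1a5 at -0.45 (limma adjusted p = 0.180), the latter with 141 and 164 normalised counts in the controls and 104 and 118 in the knockouts. Slco1a6 and Slco1c1, the brain thyroxine carrier, were too low to test. None of the 4 tested bile acid and steroid sulphate carriers of the Slc10 and Slc51 families was called, with a median of 0.20. For both of these lists edgeR and DESeq2 also called 0, and limma gave 0 genes an unadjusted p under 0.05.

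Of the Slc22 organic ion transporters 10 were tested, 3 fell and 1 rose. Slc22a16, a carnitine transporter of the testis, had 287 and 1166 normalised counts in the controls and 7.02 and 13.3 in the knockouts (-5.76, limma adjusted p = 0.000577; -4.75 without control 2). It was low in both knockouts and, like the Slco6 genes, higher in control 2 than in control 1. Slc22a18 fell by 2.85 (limma adjusted p = 0.0229) and Slc22a15 by 1.76 (limma adjusted p = 0.0104), on the log2 scale. Slc22a17, a receptor for the iron-carrier protein lipocalin, rose by 0.47 (limma adjusted p = 0.0114). Without knockout 3, Slc22a18 (0.125), Slc22a15 (0.0846) and Slc22a17 (0.0592) all lost their calls. Without knockout 1, Slc22a18 (0.0761) and Slc22a17 (0.111) lost theirs, and so did Slc22a15 (0.155) and Slc22a17 (0.0640) without control 2 and Slc22a17 (0.0586) without control 1.

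Of 13 tested ABC efflux pumps, which export organic anions and drugs, 2 fell and none was called higher by limma, edgeR or DESeq2. Abcc12, a relative of the multidrug resistance proteins known from sperm, had 647 and 1512 normalised counts in the controls and 3.01 and 8.20 in the knockouts (-7.35, limma adjusted p = 0.000109). Its groups were far apart, with control 2 again the higher control. Abcc3, an organic anion pump of liver and gut, fell by 2.27 (limma adjusted p = 0.0117), a call lost without control 2 (0.115), knockout 1 (0.0716) or knockout 3 (0.0581).

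Of 14 tested thyroid hormone genes 0 were called lower by limma, edgeR or DESeq2 and 2 rose, among them the receptor Thra by 0.56 (limma adjusted p = 0.0273). Of 14 tested prostaglandin genes Ptges3, better known as a co-chaperone, fell by 0.24 (limma adjusted p = 0.0364) and Ptges2 rose by 0.40 (limma adjusted p = 0.0440), neither of which edgeR called. Of 8 tested genes of steroid sulphation, Arsa, a lysosomal sulphatase, fell by 2.34 (limma adjusted p = 0.00725) and Papss1, which makes the sulphate donor, rose by 0.37 (limma adjusted p = 0.0275). The calls of these 5 genes were lost without knockout 3, with adjusted p-values of 0.220 for Thra, 0.262 for Ptges2, 0.151 for Ptges3, 0.141 for Papss1 and 0.0652 for Arsa. Without control 2 the same calls were lost except that of Arsa, at 0.233 for Thra, 0.166 for Ptges2, 0.183 for Ptges3 and 0.150 for Papss1. Without knockout 1, Ptges2 (0.172), Ptges3 (0.196) and Papss1 (0.172) lost their calls, as did Ptges2 (0.0988) and Ptges3 (0.119) without control 1. With scaling to Sertoli cell markers none of these lists held a gene called higher.

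**Figure D4:**
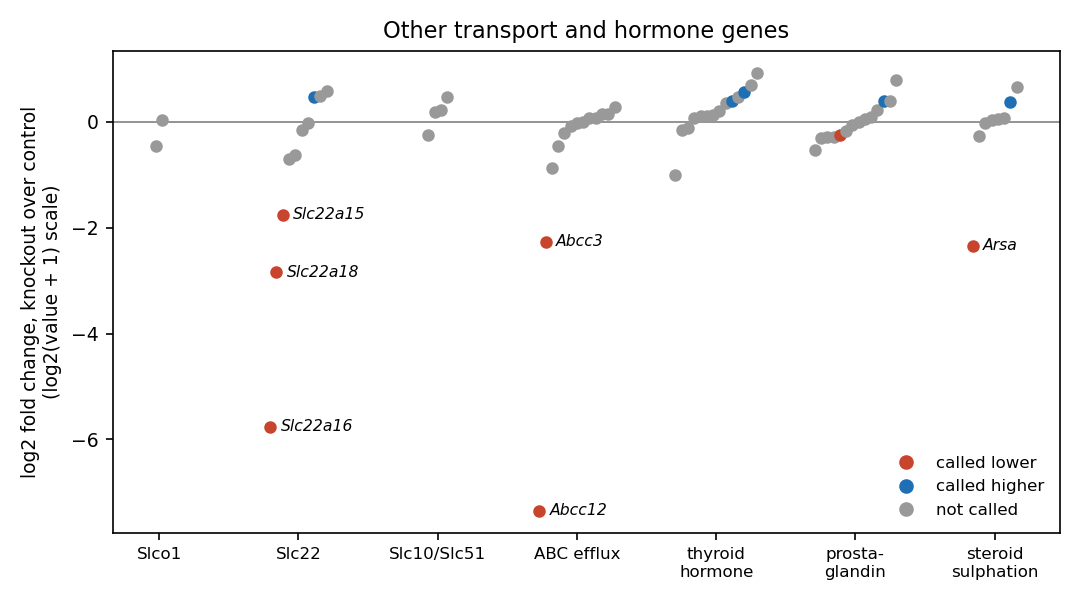
Fitted log2 fold change of knockout over control (vertical axis, log2(value + 1) scale) for each tested gene of the 7 transport and hormone lists, 1 point per gene, coloured by the limma call. Abcc12 (-7.35) and Slc22a16 (-5.76) lie far below the rest, and most genes lie near 0.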

How the data were processed

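Total RNA of whole testis was sequenced, per the labels' protocols. The tools and build in the submitters' processing notes are cutadapt, Bowtie2, featureCounts, DESeq2 and mm39. The sources used here do not give their versions or roles, the strand setting or the annotation release. The deposited signal per library is a read count divided by a size factor: 100% of values were whole multiples, within 1e-06, of the value of 1 read. Per the file headers, the deposited table also holds the authors' log2 fold change and its error, the score of their test, and p-values with and without adjustment. Knockout 2 and control 3 were not analysed here.

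The table held normalised values, so the test was limma 3.58.1 (R 4.3.3), fitted to log2(value + 1) and using a mean-variance trend, for genes with a mean of at least 10, at a Benjamini-Hochberg adjusted p under 0.05. The prior had 6.3 degrees of freedom against 2 residual ones, so p-values rest largely on variance pooled over genes. edgeR 4.0.16 (quasi-likelihood) and DESeq2 1.42.0 on recovered reads, other pseudocounts, filters and scalings, and leaving out each library were the alternatives. The fit was tested on simulated data. Ratios of genes with few reads have an exact binomial interval, and where a group had no read a floor of 3 reads over the group gives a bound in its place. Intervals and floors pool the reads of each group and cover counting error only.

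The members, lists and tests were chosen with earlier results of these data known. The named genes are the members, the neighbouring genes (those called, and those between the Slco6 genes), up to 3 called genes per list by size of change, the 3 nearest profiles per Slco6 gene, Hsf5 and up to 2 markers per list. One called gene of the lists is not reported here. RefSeq on GRCm38.p6 gave promoters and gene order, and GENCODE M21 gave transcript sequences. Promoter and transcript identities are from global alignments without a penalty for gaps at the ends, over the aligned bases.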

Additional observations from a re-analysis of the deposited data

How the results depend on the processing

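No paired analysis was possible, because replicate numbers are not stated to mark litters or days. The analysed libraries of the groups also share only replicate number 1. Under the other settings the log2 fold changes ranged from -11.91 to -6.45 for Slco6c1, -10.61 to -5.15 for Slco6d1 and -6.09 to -2.53 for Slco6b1. The call of Slco6b1 was also lost with no filter on low values (limma adjusted p = 0.103). The Slco6 median minus the median of the other members, -7.26 as reported, was -8.25 with a pseudocount of 0.5, -4.98 with 5 and -9.84 with DESeq2. edgeR gave no such value, because low members are not tested there.

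Over all genes 2366 fell and 573 rose. These were 815 and 37 with no filter on low values, 40 and 0 in limma without the trend, 2006 and 1513 with library totals, and 4218 and 44 with Sertoli scaling. Library totals set the median of all genes to 0.12 and Sertoli scaling to -0.24. Leaving out 1 library gave 889 to 2096 falls and 31 to 337 rises. In the transport and hormone lists 7 fell and 5 rose. These were 2 and 0 with no filter, 0 and 0 without the trend, 6 and 7 with library totals, and 0 higher with Sertoli scaling. Leaving out 1 library gave 2 to 7 lower and 0 to 4 higher. Of the neighbours 10 fell and 2 rose. These were 3 and 0 with no filter, 2 and 0 without the trend, 19 and 0 with Sertoli scaling, and 5 higher with library totals. Leaving out 1 library gave 7 to 10 lower and 0 to 1 higher. No called member, neighbour, list gene or nearest profile named here changed sign in any of these settings, whereas rises outnumbered falls in the transport and hormone lists with library totals. Where a call or count differed the cause was not tested beyond the setting itself. With 2 libraries per group and few reads in Slco4a1, Slco4c1 and Slco5a1, depth limits what can be said of these members.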
